A study of Mus musculus with 3 samples.

Results

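The 10 genes described here encode 7 lysosomal cathepsins (Ctsa, Ctsb, Ctsc, Ctsd, Ctsl, Ctss and Ctsz), the lysosomal membrane proteins Lamp1 and Lamp2, and the transcription factor Tfeb. They were chosen by gene symbol from 55536 annotated genes, and all 10 were found. RNA bound to chromatin was sequenced after ribosomal RNA depletion from macrophages grown from the bone marrow of C57BL/6J mice. All cells shared 1 treatment, which was 100 ng/ml lipid A for 12 h, a washout of 12 h and 100 ng/ml lipid A for a further 90 min. Lipid A anchors lipopolysaccharide in the bacterial membrane and is sensed by Toll-like receptor 4. There were 3 libraries, numbered as biological replicates 1 to 3, and no untreated cells, so no effect of lipid A can be read from them. Age and sex of the mice are not given, and all 3 libraries carry 1 donor identifier. The labels do not say that the replicates were separate cultures, so the spread between libraries may be partly technical.

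Lysosomes are acidic compartments in which proteins, lipids and sugars are broken down, and macrophages rely on them to digest engulfed material and to trim antigens. Cathepsins are the main lysosomal proteases and are made as inactive precursors that mature at low pH. TFEB is a basic helix-loop-helix factor that is held in the cytoplasm when mTORC1 phosphorylates it on the lysosome surface, and that in the nucleus binds E-box sequences near many lysosomal genes. Chromatin-bound RNA is rich in transcripts still being made or spliced, so a level here is not a level of finished cytoplasmic mRNA.

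Because TFEB binds E-boxes, the promoter windows of the genes, 250 bases before to 50 bases after each start in RefSeq (GRCm38.p6), were searched for the palindrome CACGTG. The table held 12 starts for 9 of the 10 genes, and Ctsb had no entry. CACGTG stood in 4 of the 12 windows, those of Lamp1, Ctsd and Ctsl and 1 of Ctsa, against 7.15% of all 32851 windows. The longer TCACGTG, read on both strands and containing CACGTG, stood in 3 of the 12, of Lamp1, Ctsd and Ctsa, against 3.77% of all windows. The palindrome TCACGTGA stood in 2 of the 12, of Ctsd and Ctsa, against 0.974%. The palindrome GTCACGTGAC, which contains all of these, stood in none of the 12 and in 0.326% of all windows. Lamp1 had 4 copies of CACGTG, whose first bases lie at -61, -45, -28 and -15 from its start. Ctsd had copies at -245 and -98, Ctsl at -236, and Ctsa at -12 and 6 from its second listed start. A match of letters is a description and does not show binding. Stretches of the 3 genes with TCACGTG are shown 5′ to 3′ with CACGTG in capitals, holding all Lamp1 copies, the Ctsd copy at -98 and the Ctsa copy at -12.
Lamp1 promoter, chr8:13159092-13159160, plus strand: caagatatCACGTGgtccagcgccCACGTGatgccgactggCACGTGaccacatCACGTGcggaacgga
Ctsd promoter, chr7:142387908-142387937, minus strand: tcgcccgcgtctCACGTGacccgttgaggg
Ctsa promoter, chr2:164833749-164833778, plus strand: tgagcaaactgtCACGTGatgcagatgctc

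All 10 genes had RNA on chromatin, at levels that spanned from Ctsc, the highest, to Tfeb, the lowest. Levels are in TPM, a length-corrected abundance relative to all transcripts of a library, from the deposited gene table. All 10 reached 1 TPM in each library, against 41.1% of 22015 protein-coding genes. Tfeb reached 10 TPM in replicate 2 only, and 9 of 10 genes reached 10 TPM in each, against 19.1%. Ctsc, Ctsb, Ctsd and Ctsz reached 100 TPM in each library, against 2.07%. The median over the 10 genes was 98.7 ± 6.87 TPM (SD, n = 3), against 10.9 ± 0.427 over the 9039 protein-coding genes that reached 1 TPM in each library. The genes were picked as known lysosome genes, so these counts describe them and test nothing. In bulk RNA, fewer cells that express a gene and less RNA per cell cannot be told apart.

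**Figure D1:**
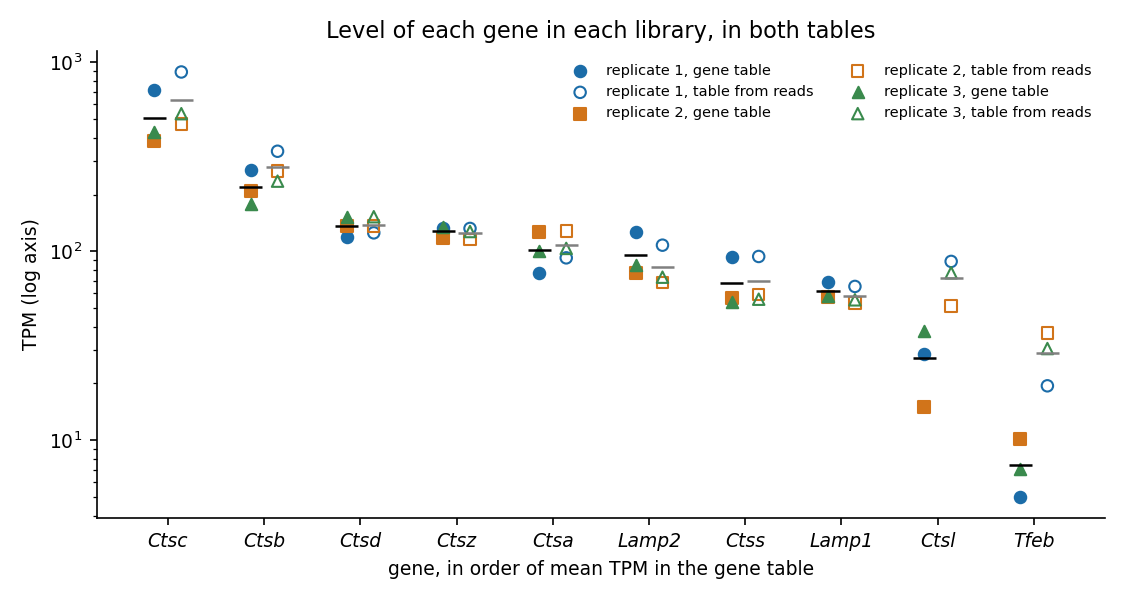
Level of each gene in each of 3 libraries, in TPM on a log axis. Filled points are the gene table made from alignments, open points the sums of the transcript table made from the reads, and short lines are means. Ctsc lies highest and Tfeb lowest in both tables, while Ctsl and Tfeb lie higher in the table from the reads.

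Among the cysteine cathepsins, Ctsc was the highest. It encodes cathepsin C (dipeptidyl peptidase 1), which removes pairs of residues from protein ends and activates granule serine proteases (7:88278085-88310888 on mm10, plus strand). Ctsc had 715, 385 and 429 TPM in replicates 1, 2 and 3, a mean of 509.9 ± 179 (SD, n = 3). Replicate 1 was high and the other libraries lay close together. The table made from the reads gave 633 ± 226 TPM with the same library highest. Ctsb, encoding cathepsin B, a protease that also cuts as a carboxydipeptidase (14:63122462-63145923, plus strand), had 271, 209 and 179 TPM in replicates 1, 2 and 3. Again replicate 1 was highest, and no Ctsb value overlapped with the Ctsc values. The within-library log2 difference of Ctsc over Ctsb was 1.18 ± 0.27, larger than its spread. It turned to -0.30 ± 0.23 when only full-length coding transcripts were counted, as described below.

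Ctsz, encoding cathepsin Z, a carboxypeptidase (2:174427493-174439039, minus strand), was the steadiest of the genes in the gene table. It had 133, 118 and 134 TPM, a mean of 128 ± 9.01. On TPM rescaled to protein-coding genes Lamp1 was steadier. In replicates 1, 2 and 3 Lamp1 then lay -0.011, 0.047 and -0.035 from its mean on the log2(TPM + 1) scale, and Ctsz -0.125, 0.021 and 0.104. Ctss encodes cathepsin S, which trims the invariant chain from MHC class II and stays active near neutral pH (3:95526786-95556403, plus strand). Ctss had 93.3, 56.4 and 53.9 TPM, a mean of 67.9 ± 22.1, so that replicate 1 stood above the other libraries as it did for Ctsc. Ctsl encodes cathepsin L, an endopeptidase (13:64359337-64370890, minus strand), and had 28.6, 15.0 and 38.1 TPM, a mean of 27.2 ± 11.6. Replicate 2 was low. In the table made from the reads Ctsl had 88.5, 51.4 and 77.1 TPM, a mean 2.66 times as high, and its libraries did not overlap with those of the gene table.

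The remaining proteases are of other catalytic classes. Ctsd encodes the aspartic protease cathepsin D (7:142375911-142388038, minus strand) and had 119, 137 and 152 TPM, a mean of 136 ± 16.4. Here replicate 1 was lowest, unlike for Ctsc, Ctsb and Ctss. Ctsa encodes cathepsin A, a serine carboxypeptidase that also protects beta-galactosidase and neuraminidase 1 in a complex (2:164832873-164841032, plus strand). Ctsa had 77.3, 127 and 101 TPM, a mean of 102 ± 24.7, with replicate 2 highest and replicate 1 lowest. Ctsd lay above Ctsa in each library, but neither could be ordered against Ctsz. The log2 difference of Ctsd over Ctsz was 0.07 ± 0.20 and that of Ctsz over Ctsa 0.36 ± 0.44, each smaller than its spread.

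Lamp2 stood above Lamp1 in each library. LAMP1 and LAMP2 are heavily glycosylated proteins that line the lysosomal membrane, and LAMP2 is also needed for fusion with autophagosomes. Lamp1 (8:13159161-13175338, plus strand) had 69.0, 57.6 and 58.4 TPM, and Lamp2 (X:38401357-38456454, minus strand) had 127, 76.9 and 84.3. Lamp1 varied little, while Lamp2 was high in replicate 1. The log2 difference of Lamp1 minus Lamp2 was -0.60 ± 0.24, negative in 3 of 3 libraries and in both tables. A two-sided sign-flip test over libraries, an exact permutation test, gave p = 0.25, the smallest that 3 libraries allow, so this test cannot pass 0.05 for any pair of genes here.

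Tfeb, the transcription factor (17:47737030-47792419, plus strand), was the lowest gene in every library. It had 5.04, 10.1 and 7.02 TPM, a mean of 7.39 ± 2.56, resting on 72, 229 and 131 expected counts. The other genes rested on 311 (Ctsl in replicate 1) to 13298 (Ctsc in replicate 1) expected counts per library. Replicate 2 was highest and replicate 1 lowest, the same order as for Ctsa. Ctsb exceeded Tfeb by 4.74 ± 0.66 on the log2(TPM + 1) scale, in 3 of 3 libraries (exact sign-flip p = 0.25). In the table made from the reads Tfeb had 19.4, 36.9 and 30.6 TPM, a mean 3.92 times as high. Its level therefore depends on the table, but Tfeb stayed the lowest of the 10 genes in both.

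Neighbours in the order of levels were compared. That order came from these same libraries, so the direction of the differences was largely set in advance. By the rule of a mean above its SD, neighbours differed beyond their spread in 5 of 9 cases, a count that tests nothing. Besides Ctsc over Ctsb, these were Ctsb over Ctsd with 0.68 ± 0.47, Lamp2 over Ctss with 0.51 ± 0.11, Lamp1 over Ctsl with 1.24 ± 0.63, and Ctsl over Tfeb with 1.70 ± 1.02, all as log2 differences within libraries. Lamp1 over Ctsl turned to -0.28 ± 0.29 in the table made from the reads. On full-length coding transcripts Ctsb over Ctsd turned to -0.50 ± 0.43 and Lamp2 over Ctss to -0.55 ± 0.18. Ctss has only such transcripts annotated, so its level could not fall there. Ctsa over Lamp2 was 0.09 ± 0.73 and Ctss over Lamp1 0.10 ± 0.29, so neither pair could be ordered. Without replicate 2 Ctsa over Lamp2 was -0.23, and without replicate 1 Ctss over Lamp1 was -0.073.

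Much of the TPM of these genes lay on annotated transcripts that lack the full coding sequence. Transcripts were put in 4 classes. Full-length coding transcripts have a coding sequence of at least 80% of the longest of their gene, and the other classes are other coding transcripts, transcripts annotated as retaining an intron, and other types. Retained-intron transcripts were annotated for 8 of the 10 genes, all but Ctsz and Ctss. Their share of the gene's TPM was highest for Ctsa with 68.3% ± 1.92 and Ctsb with 66.5% ± 2.37. It was 48.6% ± 2.82 for Ctsc, 46.2% ± 14.4 for Ctsl and 45.8% ± 1.29 for Lamp1. Ctsd with 23.6% ± 2.56, Lamp2 with 21.5% ± 2.11 and Tfeb with 17.5% ± 1.83 were lower. The median over the 8 genes was 43.7% ± 4.07, near the 48.1% ± 2.41 over the 5881 protein-coding genes that reached 1 TPM in each library and have such a transcript. These shares cannot separate an intron that is kept from one not yet spliced. The class follows the annotated type, so mostly intronic transcripts annotated as other types are not in it.

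For all 8 genes the mean share was smaller over expected counts, where short transcripts weigh less because TPM divides by length. For Lamp2 it moved only within its spread, from 21.5% ± 2.11 of TPM to 21.2% ± 2.13 of counts. The retained-intron share of counts was 25.0% ± 2.20 for Ctsa, 29.9% ± 2.57 for Ctsb, 12.2% ± 0.958 for Ctsc, 6.84% ± 3.54 for Ctsl and 13.9% ± 0.810 for Lamp1. Ctsd had 5.73% ± 1.12 and Tfeb 4.97% ± 1.27. The median over the 8 genes was 13.0% ± 0.804 of counts, and over the 5881 genes 31.7% ± 3.22. A low share in this class need not be a low share of intronic RNA. Ctsc-203, annotated as coding, has 88.0% of its bases in introns of Ctsc-201 and held 71.3% of Ctsc counts. Lamp2-205, a processed transcript, has 93.7% of its bases in introns of Lamp2-202. Ctsl shows how the share falls from TPM to counts. Ctsl-202, a retained-intron transcript with a mean effective length of 136 bases, had 26.2 expected counts on average and 13.7 ± 9.04 TPM. Ctsl-201, which encodes the whole protein, had 266 expected counts and 10.5 ± 2.01 TPM.

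**Figure D2:**
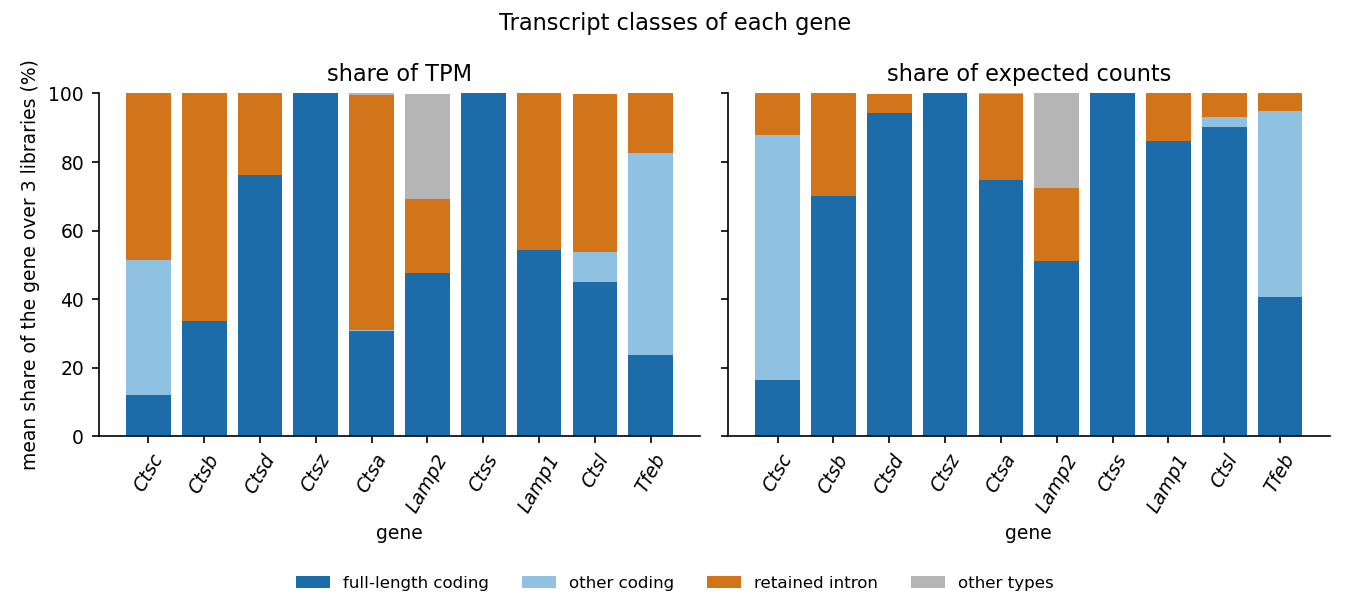
Mean share over 3 libraries of each gene's TPM (left) and of its expected counts (right) on 4 classes of annotated transcripts. Ctsz and Ctss have only full-length coding transcripts annotated, and the retained-intron part of Ctsl falls from 46.2% of TPM to 6.84% of counts.

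The leading retained-intron transcripts of Ctsb, Ctsc, Ctsd, Ctsl and Lamp1 run across the border of an exon and an intron. A single such border of each is shown 5′ to 3′ from the GENCODE M21 transcripts (mm10), exon in lower case and intron in capitals, because it is there that these transcripts differ from spliced RNA.
Ctsb-203, intron 1, chr14:63122551-63122580, plus strand: gtcgcgctgcgctcgGTGAGTTTGCCCGGG
Ctsc-205, intron 2, chr7:88297068-88297097, plus strand: TTTTCTTGGTTGCAGtatgaagtcagaggc
Ctsd-203, intron 3, chr7:142383403-142383432, minus strand: ttgacatagcctgctGTGAGTCTCTCTGCT
Ctsl-202, intron 2, chr13:64369013-64369042, minus strand: agactgtatggcacgGTTTGTAGTGTTTAC
Lamp1-202, intron 6, chr8:13173612-13173641, plus strand: TGCCTTTTCTTTCAGaatgccagctctagc
The Ctsb, Ctsd and Ctsl stretches cross the start of an intron, and the Ctsc and Lamp1 stretches cross the end of one.

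In the table from alignments a single transcript carried most of the retained-intron share of Ctsb, and Lamp1 has only 1 such transcript annotated. Ctsb-203 is 1 exon at the start of the gene with 95.9% of its bases in intron 1 of Ctsb-201, the only full-length coding transcript. It held 57.6% ± 4.29 of Ctsb TPM, with 62.6%, 55.6% and 54.8% in replicates 1, 2 and 3. The table made from the reads put 31.9% there and 47.8% on Ctsb-202, a retained-intron transcript further along the gene that had 8.85% in the table from alignments. Both tables thus put most of the Ctsb TPM on retained-intron transcripts, but on different ones. Of the expected counts, 70.1% ± 2.57 lay on the full-length Ctsb-201. Lamp1-202, with 72.2% of its bases intronic, held 45.8% ± 1.29 of Lamp1 TPM and 40.7% in the table from the reads. It lies wholly within the span of Grtp1, a gene on the opposite strand, and the part of Grtp1 reads in this share was not tested. In Ctsa the share was spread over 7 retained-intron transcripts, led by Ctsa-212 with 21.9% ± 2.42. The table from the reads put 9.49% on Ctsa-212 and was led by another of them, Ctsa-211.

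In the table from alignments the leading transcript of Ctsc was a short coding one. Ctsc-203 encodes 137 codons against 462 in Ctsc-201, and 88.0% of its bases lie in introns of Ctsc-201. It held 41.2%, 36.3% and 40.2% of Ctsc TPM in replicates 1, 2 and 3, and 71.3% of Ctsc counts on average. In the table from the reads it held 24.2% of TPM, and the retained-intron transcript Ctsc-204 led with 36.7%. Ctsc-201, the only full-length coding transcript, held 11.9% ± 0.825 of TPM and 16.4% ± 1.19 of counts. The high whole-gene level of Ctsc was therefore mostly not on the transcript of the whole protein. The lincRNA gene Gm26522 lies on the opposite strand within Ctsc (7:88278787-88283529) and had 220.3, 98.8 and 113 TPM, also highest in replicate 1. The sources used here do not state strand use in the counting, so reads of the pair may not be separated. The part of Gm26522 in the Ctsc level was not tested.

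Counting only full-length coding transcripts gave another order of the genes. Ctsz and Ctss have only such transcripts annotated, so their levels could not fall on this scale, while those of the other genes could. Their rise in the order is thus in part set by the annotation. Ctsz led with 128 ± 9.01 TPM, followed by Ctsd with 104 ± 14.3, Ctsb with 73.1 ± 12.4, Ctss with 67.9 ± 22.1 and Ctsc with 60.3 ± 18.3. Lamp2 with 45.2 ± 8.67, Lamp1 with 33.4 ± 3.62, Ctsa with 31.2 ± 7.18, Ctsl with 11.3 ± 2.13 and Tfeb with 1.82 ± 1.04 followed. On this scale the tables lay closer for the genes where they had differed most. Ctsl had 9.24 ± 2.03 TPM and Tfeb 2.27 ± 0.913 in the table from the reads. Their disagreement on whole-gene TPM lay on short transcripts such as Ctsl-202, with 13.7 TPM in one table and 44.2 in the other.

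**Figure D3:**
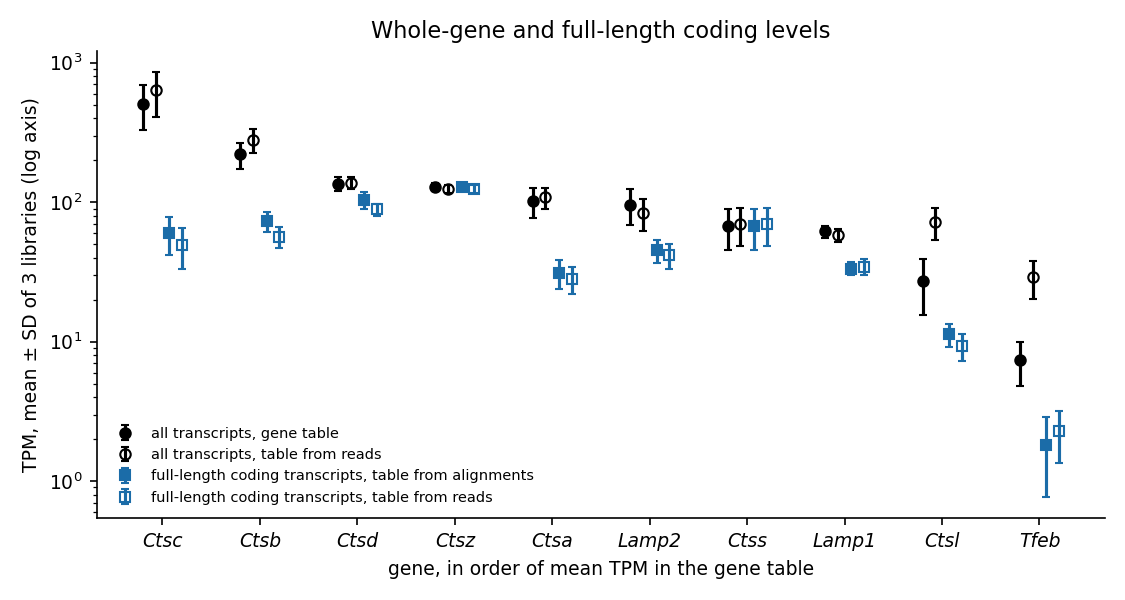
Mean level ± SD over 3 libraries, in TPM on a log axis, of all transcripts (circles) and of full-length coding transcripts (squares) of each gene, in the table from alignments (filled) and the table from the reads (open). Ctsz and Ctss, with only full-length coding transcripts annotated, cannot move, and Ctsc falls from 509.9 to 60.3 TPM. The tables lie closer for the full-length levels of Ctsl and Tfeb than for their whole-gene levels.

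The share of Tfeb on transcripts of the whole protein depended on the measure. Tfeb has 15 annotated transcripts, and full-length coding ones held 24.9%, 29.8% and 16.8% of its TPM in replicates 1, 2 and 3. They held 40.6% ± 12.7 of its expected counts, and 7.63% of TPM in the table from the reads. They are Tfeb-201, with the longest coding sequence, and Tfeb-202 and Tfeb-204 with 475 codons. At a limit of 90% of the longest coding sequence Tfeb-201 alone remained. Its share of TPM was 1.55% ± 2.68, with 0%, 4.64% and 0% in replicates 1, 2 and 3, so it rests on replicate 2 only. Tfeb-203, a coding transcript of 267 codons, led with 27.6% ± 9.04 of TPM and 38.4% of counts, but held 9.36% of TPM in the table from the reads. Of the bases of Tfeb-203, 58.4% lie in introns of Tfeb-204. With 72 to 229 counts spread over 15 transcripts, the order among them is not firm. Tfeb-207, for instance, was listed at 0 in every library of the table from alignments and led in the table from the reads with 15.9%.

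Lamp2 has 3 full-length coding transcripts that share all exons but the last and so encode different membrane tails. The 3 tails are known as LAMP-2A, the receptor of chaperone-mediated autophagy, LAMP-2B and LAMP-2C. The last 30 coding bases of each are shown 5′ to 3′ (mm10, minus strand) because they lie in the last exon, where the proteins differ, and the capitals mark the codon of the tyrosine in the lysosomal sorting signal.
Lamp2-201, LAMP-2A, chrX:38405435-38405464: aagcgccatcatactggaTATgagcaattt
Lamp2-202, LAMP-2B, chrX:38421715-38421744: agaaagacctatgctggaTATcagactctg
Lamp2-203, LAMP-2C, chrX:38402142-38402171: cggaaaagtcgtactggtTATcagtctgtc
Lamp2-202 led in each library, with 73.1%, 68.9% and 73.8% of full-length Lamp2 TPM. Lamp2-201 had 20.8%, 24.8% and 22.9%, and Lamp2-203 had 6.07%, 6.32% and 3.29%. Over expected counts Lamp2-202 held 84.3% ± 1.77, Lamp2-201 12.2% ± 1.13 and Lamp2-203 3.55% ± 1.16. The 3 transcripts did not overlap across libraries. The table from the reads gave the same order, with 58.3% ± 1.81, 33.9% ± 2.32 and 7.82% ± 1.90. Reads in the shared exons fit all of these transcripts, so the shares rest on how each table divides them. On the minus strand the last exon of Lamp2-202 (X:38419507-38421851) comes before those of Lamp2-201 (X:38405062-38405571) and Lamp2-203 (X:38401357-38402281). Unspliced RNA that runs on to the later exons also holds the bases of the Lamp2-202 exon. The part of such RNA in the lead of Lamp2-202 was not tested, so these shares are not shares of finished mRNA. A further 30.7% ± 2.72 of all Lamp2 TPM lay on Lamp2-205, a processed transcript with 93.7% of its bases in introns of Lamp2-202.

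Libraries differed for some of the genes and not for others. The SD over libraries of log2(TPM + 1) was highest for Ctsl with 0.66, above 95.8% of the 4776 protein-coding genes whose mean reached 10 TPM, and whose median SD was 0.25. Ctsc with 0.48, Tfeb with 0.44, Ctss with 0.43, Lamp2 with 0.38, Ctsa with 0.35 and Ctsb with 0.30 also lay above that median. Tfeb, with a mean of 7.39 TPM, is not among the 4776 genes, so for it the comparison is not like for like. Ctsd with 0.17, Lamp1 with 0.14 and Ctsz with 0.10 lay below it. Replicate 1 was highest for Ctsc, Ctsb, Lamp2, Ctss and Lamp1, and lowest for Ctsd, Ctsa and Tfeb. Replicate 2 was highest for Ctsa and Tfeb. Replicate 1 also had the most starting RNA (1 µg, against 250 ng and 500 ng), the fewest counts and the highest share of TPM on protein-coding genes, 34.1% against 27.4% and 29.4%. The part of these in the differences was not tested. On TPM rescaled to protein-coding genes, Lamp1 in replicate 1 moved from 0.16 above its mean to -0.01, and replicate 2 became its highest library. Ctsl was highest in replicate 3 in the gene table and in replicate 1 in the table from the reads.

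**Figure D4:**
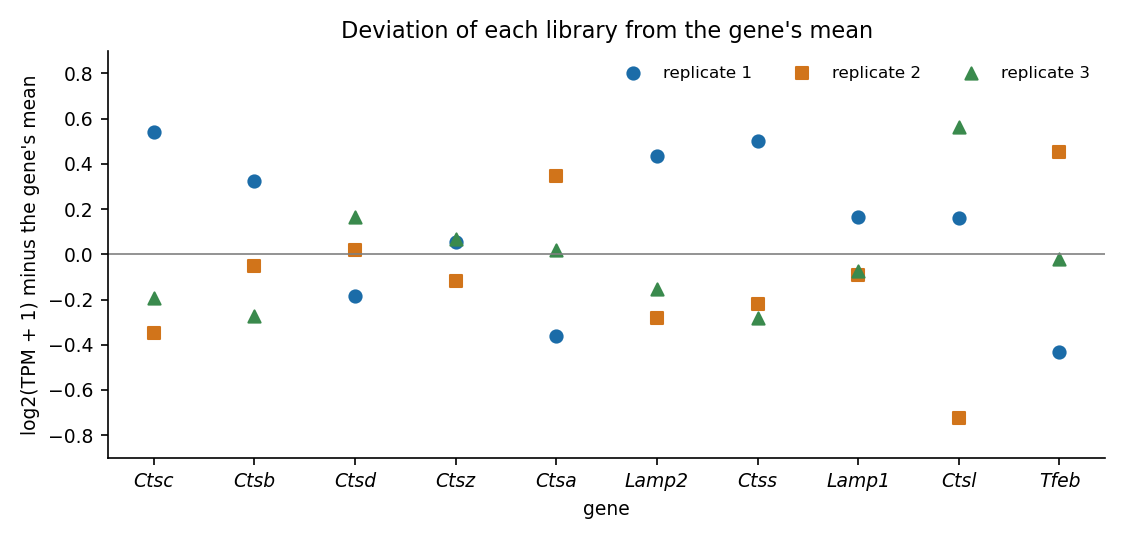
Deviation of each of 3 libraries from the gene's mean, on the log2(TPM + 1) scale. Replicate 1 lies highest for Ctsc, Ctsb, Lamp2, Ctss and Lamp1 and lowest for Ctsd, Ctsa and Tfeb, and Ctsl has the widest spread.

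The protein-coding genes whose 3 values lay nearest to those of Ctsb, by Euclidean distance on log2(TPM + 1) over the 3 libraries among 22014 genes, were the kinase gene Tbk1 (distance 0.02), the Arp2/3 subunit gene Actr3 (0.14) and the talin gene Tln1 (0.16). Tbk1 had 270.5, 212 and 178 TPM. Nearest to Tfeb were Fam50a (0.06), Drosha (0.10), which encodes the nuclear microRNA-processing enzyme, and the lysosomal channel gene Tpcn1 (0.12). With 3 libraries of 1 condition this is a likeness of level and no more.

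Other genes share bases with members. Gm49369 lies on the strand of Ctsd and overlaps it over 6757 bases, and had 30.7 ± 7.92 TPM, or 86.9 in the table from the reads. The pseudogene Hmgb1-ps5 lies within an intron of Ctss on its strand and had 57.9 ± 27.0 TPM. On the opposite strand Pltp and Neurl2 overlap Ctsa with 27.6 and 9.29 TPM, and Grtp1 overlaps Lamp1 with 14.9. Fdft1 overlaps Ctsb over 774 bases and Gm47123 overlaps Ctsl, both on the opposite strand, with 5.25 and 0.857 TPM. Reads of overlapping genes may not be separated, and levels of Ctsc, Ctsb, Ctsd, Ctsa, Ctss, Lamp1 and Ctsl carry this uncertainty. Ctsz shares 10 bases with Nelfcd.

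In the gene table Tfeb was lower than its relatives. Of the other MiT-TFE factors, which bind the same E-boxes, Tfec had 147, 67.9 and 111 TPM, Mitf 109, 48.1 and 69.2, and Tfe3 37.2, 38.5 and 41.5. Each of these values lay above each Tfeb value. In the table from the reads Tfe3 had 32.4, 34.02 and 35.0 TPM and overlapped with Tfeb, which lay above Tfe3 in replicate 2. Replicate 1 was highest for Tfec and Mitf and lowest for Tfeb. TFEB is held in the cytoplasm through mTORC1, the Rag GTPases and their regulators. Among 20 genes of these, 17 reached 1 TPM in each library, against 41.1% of all protein-coding genes. Fnip2, a partner of folliculin, was highest at 153 and Rragb, a Rag GTPase, lowest at 0.14.

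In the other lysosome lists except the other cathepsins, most genes reached 1 TPM in each library, against 41.1% of all protein-coding genes. These genes too were picked as known ones, so the counts test nothing. Of 7 other cathepsin genes only Ctsh, Ctso and Ctsw did, which is near that share. Ctsh, an aminopeptidase, had 105 ± 8.88 TPM, close to Ctsa. Ctsg, a granule protease of neutrophils, had 0 counts in each library, which allows up to 3 counts. Of 5 genes listed as cathepsin inhibitors, a serpin gene and cystatin genes, 4 reached 1 TPM in each library. The serpin gene Serpinb6a was highest at 28.6 ± 5.45, and its action on cysteine cathepsins is not established here. Cst7 was the highest cystatin gene at 19.1 ± 8.21, and Cst6 was lowest at 0.01. Of the cysteine cathepsins described, Ctsb, Ctsc, Ctss and Ctsz exceeded each of these inhibitor genes in mean TPM of the gene table. Ctsl, with 27.2, lay below Serpinb6a and above Cst7. In the table from the reads Ctsl, with 72.3, lay above Serpinb6a, with 46.2.

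Of 17 proton pump subunits, 16 reached 1 TPM in each library, against 41.1% of all protein-coding genes. Tcirg1, a membrane subunit of the pump, had 1059 ± 169 TPM, above Ctsc. Atp6v0d2 was lowest with 1.04. The list of 35 other hydrolases does not hold hydrolases alone, as its highest gene, Psap, encodes the saposin precursor. Of its genes 31 reached 1 TPM, from Psap with 292 ± 71.8 to Arsb, arylsulfatase B, with 0.27. Of 15 other membrane proteins 13 did, from Cln3 with 297 ± 47.0 to Lamp3, a relative of Lamp1 and Lamp2, with 0.02. Of 12 genes for enzyme sorting 11 did, from Lrp1 with 106 ± 61.7 to the sortilin gene Sort1 with 0.23. Of 12 autophagy genes 11 did, from Sqstm1, the cargo receptor p62, with 313 ± 72.5 to Wipi1 with 0.73. List medians ran from 0.62 TPM for the other cathepsins to 75.6 for the MiT-TFE factors.

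**Figure D5:**
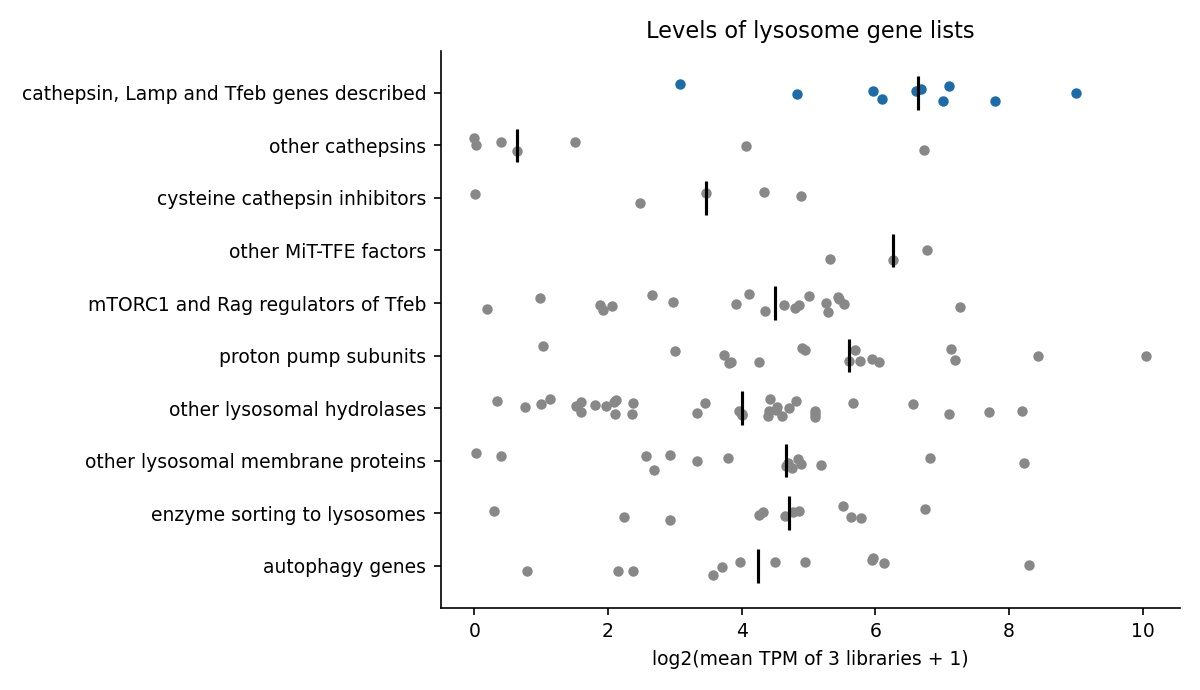
Mean level over 3 libraries, as log2(TPM + 1), of each gene in 10 lists. Points are genes and black lines list medians. The 10 genes described lie between Tfeb and Ctsc, and the other cathepsins are mostly near 0.

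Macrophage markers were present at far higher levels than markers of other cell types. All 8 macrophage markers reached 1 TPM in each library, led by Adgre1 with 422 ± 65.5, and their summed level was 791 to 988 TPM. None of 8 neutrophil markers did (summed 0.10 to 0.38 TPM, highest S100a9), with Ctsg, Elane, S100a8 and Ly6g at 0. Of 6 osteoclast markers Acp5 alone did, with 1.87, while Ctsk, the osteoclast cathepsin, had 0.32 TPM. None of 6 dendritic cell markers (highest Zbtb46) and none of 5 fibroblast markers (highest Pdgfrb) reached 1 TPM. These counts are from the gene table. In the table from the reads 1 neutrophil (Mpo), 3 osteoclast (Acp5, Atp6v0d2 and Ocstamp), 2 dendritic cell (Zbtb46 and Xcr1) and 1 fibroblast marker (Col1a1) reached 1 TPM in each library. The highest of them was Ocstamp with 5.89 TPM, which was listed at 0 in the gene table.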

How the data were processed

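Chromatin RNA of 3 libraries of 1 condition was analysed. Members and lists were chosen with earlier results of these data known. The authors deposited a gene and a transcript table made from alignments, with expected counts (estimated, not always whole) and TPM, and a transcript table made from the reads with estimated counts and TPM, per the file headers. Genome mm10 and annotation GENCODE M21 come from the submitters' processing notes. The programs that made the tables are not given in the sources used. Total expected counts were 12671700, 21747001 and 16915406 in replicates 1 to 3. The 26345 rows that are no annotated gene held 1.34%, 0.292% and 0.416% of counts and were left out.

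Gene levels are the deposited TPM, and shares were computed from transcript TPM. Differences were taken within libraries on log2(TPM + 1) with an exact two-sided sign-flip test. A difference was called beyond its spread where its mean exceeded its SD. Named genes were the 10 members, the highest and lowest gene of each other lysosome list, the 3 nearest genes to Ctsb and Tfeb, and the highest of each marker list; others named were chosen after their values were seen. The full-length rule of 80% was chosen after seeing the data. Alternatives were the other table, rescaled TPM, expected counts scaled with edgeR 4.0.16 TMM and DESeq2 1.42.0 size factors, a pseudocount of 0.1, and leaving out each replicate. Functions were tested on simulated data. Floors of 3 counts cover counting error only.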

Additional observations from a re-analysis of the deposited data

How the results depend on the processing

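The median level of the 10 genes, 98.7 TPM, was 327.6 when TPM were rescaled to protein-coding genes and 52.5 on full-length coding transcripts; it stayed within its spread between libraries under the other table and 3 count scalings, and leaving out a replicate gave 95.0 to 101.8. On full-length coding transcripts, an alternative chosen after seeing the data, the log2 differences turned to -0.30 for Ctsc over Ctsb, -0.50 for Ctsb over Ctsd, -0.31 for Ctsd over Ctsz, -0.53 for Ctsa over Lamp2 and -0.55 for Lamp2 over Ctss. Ctsz and Ctss have only such transcripts annotated, so their levels could not fall there. Without length correction Ctsa over Lamp2 was -1.24 and Ctss over Lamp1 -0.069. The table from the reads turned Lamp1 over Ctsl to -0.28. Leaving out 1 replicate gave -0.23 to 0.49 for Ctsa over Lamp2 and -0.073 to 0.20 for Ctss over Lamp1. The median retained-intron share of 43.7% was 50.9% in the table from the reads and 13.0% of expected counts. The median full-length coding share of 45.9% was 38.2% and 80.4% in the same order. Lamp1 minus Lamp2 and Ctsb minus Tfeb kept their direction under each alternative run. Counts of detected genes in the 10 lysosome lists, markers not included, stayed within 1.5 times the reported count. No paired comparison of conditions was possible because the series has 1 condition, so its replicate numbers pair no groups. Differences between genes were paired within libraries. Depth limits Tfeb most, with 72 to 229 counts over 15 transcripts.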
